A study of Mus musculus with 4 samples.

Results

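Cdkn2a, Cdkn2b and Cdkn1a encode proteins that halt the cell cycle, and the state of their chromatin was read from called regions of H3K27me3 and H3K4me3 in mouse rosette stem cells. The regions were chosen by position alone. Every region of the 4 deposited lists was taken that overlapped, by at least 1 bp, a 70 kb window of chromosome 4 given for Cdkn2a and Cdkn2b (mm9, 88900001 to 88970000) or a 40 kb window of chromosome 17 given for Cdkn1a (mm9, 29210001 to 29250000). This gave 29 of the 76945 regions of the series, of which 20 lay in the chromosome 4 window and 9 in the chromosome 17 window. The gene table at hand is on a different build (GRCm38.p6) from the lists. Regions are therefore described by their place in the window, with none assigned to a transcript start.

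Rosette stem cells are pluripotent cells held between the naive and the primed state. They were made from the embryonic stem cell lines CGR8 (strain 129/Ola) and R1 (strain 129) in N2B27 medium on plates coated with gelatin and serum, over 8 days, and all 4 cultures carried the same additions: LIF, the WNT secretion inhibitor IWP2 at 2 µM and the MEK inhibitor PD325901 at 1 µM. There was 1 library per line and mark, giving n = 2 lines for H3K27me3 and n = 2 lines for H3K4me3. With no second library of a line, differences between CGR8 and R1 were described and not tested. No library from the cells before this culture was analysed here, so nothing below describes a change caused by it.

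Cdkn2a has alternative first exons that give different proteins. The product p16Ink4a, like the Cdkn2b product p15Ink4b, binds the cyclin D kinases Cdk4 and Cdk6 and keeps them from phosphorylating the retinoblastoma protein. The product p19Arf binds Mdm2 and so stabilises p53, and Cdkn1a, which encodes p21, is a classical target gene of p53 that inhibits cyclin-dependent kinases more broadly. H3K27me3 is set by Polycomb repressive complex 2, for which the Cdkn2a and Cdkn2b locus is a well-studied target in dividing cells, and H3K4me3 marks promoters, both active ones and silent ones that also carry H3K27me3.

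The sequences before the annotated starts of these genes are shown because both marks tend to lie at promoters rich in CpG dinucleotides. They are the 250 bases before each start, 5′ to 3′ on the strand of the gene, from RefSeq on GRCm38.p6, with every CpG in capitals. On chromosome 4 all 3 starts are on the reverse strand, and along the chromosome the p16Ink4a start comes first, the p19Arf start next and the Cdkn2b start last. The Cdkn2a windows were listed by gene name and position alone. The product names p16Ink4a and p19Arf were added to them here and were not checked against transcript names. On chromosome 17 both Cdkn1a starts are on the forward strand, the upstream one first.
Cdkn2a, p16Ink4a start: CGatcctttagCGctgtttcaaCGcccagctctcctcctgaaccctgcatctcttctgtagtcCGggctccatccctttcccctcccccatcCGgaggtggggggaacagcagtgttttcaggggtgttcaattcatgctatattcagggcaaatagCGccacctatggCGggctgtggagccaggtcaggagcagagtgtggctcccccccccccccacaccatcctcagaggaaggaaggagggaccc
Cdkn2a, p19Arf start: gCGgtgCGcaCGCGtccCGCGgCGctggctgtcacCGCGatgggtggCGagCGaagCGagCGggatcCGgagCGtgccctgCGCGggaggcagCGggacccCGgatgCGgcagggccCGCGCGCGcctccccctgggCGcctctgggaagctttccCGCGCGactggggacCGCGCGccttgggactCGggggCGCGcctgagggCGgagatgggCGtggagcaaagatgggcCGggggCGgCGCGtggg
Cdkn2b start: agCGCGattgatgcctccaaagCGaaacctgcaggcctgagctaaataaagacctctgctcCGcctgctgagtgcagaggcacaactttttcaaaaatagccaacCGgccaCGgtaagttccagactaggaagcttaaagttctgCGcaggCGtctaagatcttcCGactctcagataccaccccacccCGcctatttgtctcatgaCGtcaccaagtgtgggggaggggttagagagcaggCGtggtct
Cdkn1a, upstream start: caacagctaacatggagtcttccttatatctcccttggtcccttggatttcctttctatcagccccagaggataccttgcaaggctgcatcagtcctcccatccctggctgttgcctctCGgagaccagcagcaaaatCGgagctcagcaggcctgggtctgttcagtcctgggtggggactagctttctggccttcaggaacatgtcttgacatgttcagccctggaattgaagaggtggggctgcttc
Cdkn1a, downstream start: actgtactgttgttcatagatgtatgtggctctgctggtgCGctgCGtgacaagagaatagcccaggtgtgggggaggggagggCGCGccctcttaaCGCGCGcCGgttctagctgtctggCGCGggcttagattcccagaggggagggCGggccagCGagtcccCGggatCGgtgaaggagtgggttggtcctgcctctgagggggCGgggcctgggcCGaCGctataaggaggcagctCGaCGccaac

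These windows differed widely in CpG content. The p19Arf window held 40 CpG at a GC content of 78.4%, more CpG than 98.7% of the 32851 windows of this length in the RefSeq table, whose median was 6. The Cdkn2b window held 12 CpG and the p16Ink4a window 7, more than 66.5% and 53.7% of all windows. At Cdkn1a the downstream window held 19 CpG, more than 80.3% of windows, and the upstream one 2, more than 18.8%. The letters GGGCGG, searched on both strands, were found 2 times in the p19Arf window and 2 times in the downstream Cdkn1a window and not in the other 3, and 32.7% of all windows held them. The letters TATAA, also searched on both strands, were found in both Cdkn1a windows and not in the other 3, and 22.8% of all windows held them. In the downstream Cdkn1a window they stood on the forward strand, 25 bases before the start, and in the upstream one on the reverse strand.

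The lists differed in length and depth. For H3K27me3 the CGR8 list had 14575 regions and the R1 list 12511, with lowest scores of 70.6 and 59.4, and for H3K4me3 they had 25241 and 24618, with lowest scores of 38.5 and 37.3. Total read numbers are not stated in the labels or the lists. A mean count of reads per window of 200 bp, worked out from the scores of the shortest regions, was 2.11 in CGR8 and 1.92 in R1 for H3K27me3 and 0.740 and 0.706 for H3K4me3, the R1 H3K27me3 value resting on 2 regions. The score is the authors' deposited value and is used here mainly to rank regions within a list. Where scores of different lists are set side by side, the lists differ in depth and lowest score, so such comparisons are descriptions only. A place without a region was below the calling limit at this depth and may still carry the mark.

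The chromosome 4 window carried both marks in both lines, while the chromosome 17 window carried H3K4me3 in both lines and H3K27me3 in R1 only. At Cdkn2a and Cdkn2b, H3K27me3 covered 33.6 kb of the window in CGR8 and 37.6 kb in R1 (mean 35.6 kb ± 2.83, SD, n = 2 lines), and H3K4me3 covered 10.0 kb and 9.6 kb (mean 9.8 kb ± 0.283, SD, n = 2 lines). At Cdkn1a, H3K27me3 covered 0 kb in CGR8 and 3.2 kb in R1 (mean 1.6 kb ± 2.26, SD, n = 2 lines), and H3K4me3 covered 13.6 kb and 11.0 kb (mean 12.3 kb ± 1.84, SD, n = 2 lines). For H3K27me3 the windows differed by far more than the lines did. For H3K4me3 the lines differed at Cdkn1a by about as much as the means of the windows, which are also of unequal length.

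**Figure D1:**
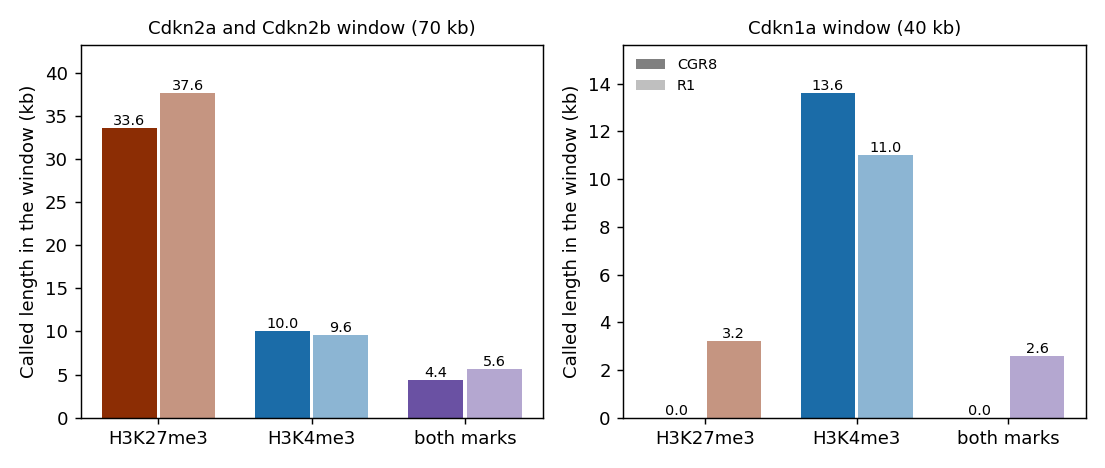
Called length in kb of H3K27me3, of H3K4me3 and of both marks together, clipped at the window edges, in the 70 kb window of Cdkn2a and Cdkn2b and the 40 kb window of Cdkn1a. Full colour is CGR8 and pale colour R1, with 1 library per bar and a separate axis for each window. H3K27me3 exceeds H3K4me3 in the first window (33.6 and 37.6 kb against 10.0 and 9.6 kb) and the order is the other way round in the second (0 and 3.2 kb against 13.6 and 11.0 kb).

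Set beside the whole genome, H3K27me3 at Cdkn2a and Cdkn2b and H3K4me3 at Cdkn1a were both extensive. Of 37703 stretches of 70 kb laid end to end along the chromosomes, 98.4% had less H3K27me3 than the Cdkn2a and Cdkn2b window in CGR8 and 99.5% in R1, and 96.5% and 96.7% had less H3K4me3. Of 65971 stretches of 40 kb, 99.6% had less H3K4me3 than the Cdkn1a window in CGR8 and 99.4% in R1, while 19.4% and 16.8% held any H3K27me3. Most stretches held no region: 26.9% and 24.0% of those of 70 kb held any H3K27me3 and 34.7% and 34.4% any H3K4me3 (CGR8 and R1). Of those of 40 kb, 25.3% and 25.0% held any H3K4me3. Where any was held, the median H3K27me3 length at 70 kb was 9.8 kb in CGR8 and 8.0 kb in R1. The median H3K4me3 length at 40 kb was 2.6 kb in each line. The median H3K27me3 length at 40 kb was 8.4 kb in CGR8 and 7.0 kb in R1, against 0 and 3.2 kb in the Cdkn1a window. The stretches were laid without regard to genes, whereas the windows were given for genes, and no stretches placed at genes were compared. These shares are descriptions and were not tested.

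H3K27me3 at Cdkn2a and Cdkn2b was made up of a broad region of high score and regions of lower score around it. In CGR8 the broad region ran from 88910801 to 88931600 (20.8 kb, score 898) and ranked 627 of 14575 by score. In R1 it ran from 88915601 to 88930800 (15.2 kb, score 645) and ranked 899 of 12511. In score it stood above 95.7% of the CGR8 list and 92.8% of the R1 list, and in width above 95.2% and 92.4%. The R1 region lay wholly inside the CGR8 one, which reached 4800 bp further on its lower side and 800 bp further on the other. The log2 score ratio of CGR8 over R1 was 0.48, against a median of 0.25 over 8167 H3K27me3 regions with a single partner in each line, so the larger CGR8 score lay inside the range of most pairs (10th to 90th percentile −0.30 to 0.94).

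Above the broad region H3K27me3 continued in regions of lower score. The next one ran from 88933401 to 88940200 in CGR8 (6.8 kb, score 123) and from 88931801 to 88940200 in R1 (8.4 kb, score 120), and it ended at the same base in both lines. The one after it ran from 88941201 to 88944200 in CGR8 (3.0 kb, score 116) and from 88941001 to 88944000 in R1 (3.0 kb, score 73.2). In score these stood above 45.8% and 42.3% of the CGR8 list and 51.6% and 20.8% of the R1 list, near or below the middle. Per kb, the broad region and these regions, in order, scored 43.2, 18.1 and 38.7 in CGR8, above 88.2%, 43.5% and 84.8% of the list. In R1 the values were 42.4, 14.2 and 24.4, above 84.7%, 23.3% and 59.8%. The last of them in CGR8 was thus lower in score mainly through its smaller width. Joined across gaps of at most 2000 bp, a limit set after the gaps were seen, the 3 regions made a stretch of 33.4 kb in CGR8 (88910801 to 88944200) and of 28.4 kb in R1 (88915601 to 88944000). With all regions joined in that way, its width ranked 330 of 12650 stretches in CGR8 and 303 of 11016 in R1.

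The outer parts of the window differed more between the lines. At the lower edge a weak region ran from 88897601 to 88903000 in CGR8 (5.4 kb, score 76.5) and from 88897601 to 88906000 in R1 (8.4 kb, score 78.6), and 2.4 kb of it lay outside the window in each line. At the upper side R1 alone had a region from 88951001 to 88956000 (5.0 kb, score 81.2), which stood above 28.8% of its list. The lowest score listed in CGR8 was 70.6, but scores of the lists need not share a scale, and the part of depth in this difference was not tested. All 4 CGR8 regions of this window overlapped R1 regions, against 67.1% of the whole CGR8 list, and 4 of the 5 R1 regions overlapped CGR8 regions, against 81.1% of the R1 list. Of the bases called for H3K27me3 in either line, 64.1% were called in both, against 49.3% genome-wide.

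H3K4me3 in the same window formed 6 regions of 0.8 to 3.0 kb in CGR8 and 5 of 1.0 to 3.0 kb in R1, against a median of 2000 bp in each list. Along the chromosome, the first ran from 88922201 to 88923200 in both lines (1.0 kb, score 51.6 in CGR8 and 66.1 in R1). The second ran from 88927601 to 88929000 in CGR8 (1.4 kb, score 205) and from 88927201 to 88929200 in R1 (2.0 kb, score 212). Both of these lay wholly inside the broad H3K27me3 region of their line, and they stood low to middling in their lists, above 10.7% and 42.4% of the CGR8 regions and 18.6% and 42.1% of the R1 regions.

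The third H3K4me3 region was the strongest of the window and had identical bounds in both lines, from 88939201 to 88942200 (3.0 kb, score 1645 in CGR8 and 1543 in R1). It stood above 82.2% of the CGR8 list and 80.6% of the R1 list. It sat across a break in H3K27me3: the break between the regions described above ran from 88940201 to 88941200 in CGR8 (1000 bp) and from 88940201 to 88941000 in R1 (800 bp), and in each line it lay wholly inside the H3K4me3 region. H3K27me3 covered the flanks of that region, 66.7% of its length in CGR8 and 73.3% in R1. Among all breaks of at most 2000 bp between neighbouring H3K27me3 regions, 169 of 1925 in CGR8 (8.78%) and 186 of 1495 in R1 (12.4%) lay wholly inside H3K4me3. The other short break of the window, from 88931601 to 88933400 in CGR8 and from 88930801 to 88931800 in R1, held no H3K4me3 in either line. Since the smallest break left in these lists is 800 bp, a narrower dip of H3K27me3 under the weaker H3K4me3 regions would not be seen.

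Of the upper H3K4me3 regions, those of CGR8 lay beyond its last H3K27me3 region, while in R1 the fourth lay between H3K27me3 regions and the last at the edge of one. The fourth ran from 88948401 to 88950200 in both lines (1.8 kb, score 89.4 in CGR8 and 123 in R1) and met no H3K27me3, the nearest being 4.2 kb away in CGR8 and 0.8 kb in R1. The last, and the second strongest, ran from 88955401 to 88957400 in CGR8 (2.0 kb, score 928) and from 88955601 to 88957400 in R1 (1.8 kb, score 914), above 67.9% and 66.8% of the lists. In CGR8 it lay 11.2 kb from H3K27me3. In R1 the H3K27me3 region of that line alone reached 400 bp into it, 22.2% of its length, so this H3K4me3 region was free of H3K27me3 in CGR8 and overlapped its edge in R1. A further H3K4me3 region of CGR8 alone, from 88952801 to 88953600 (0.8 kb, score 39.3), stood above 0.87% of its list, and its place was covered by H3K27me3 in R1. Its score was 1.02 times the lowest listed, so it lay at the limit of calling.

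**Figure D2:**
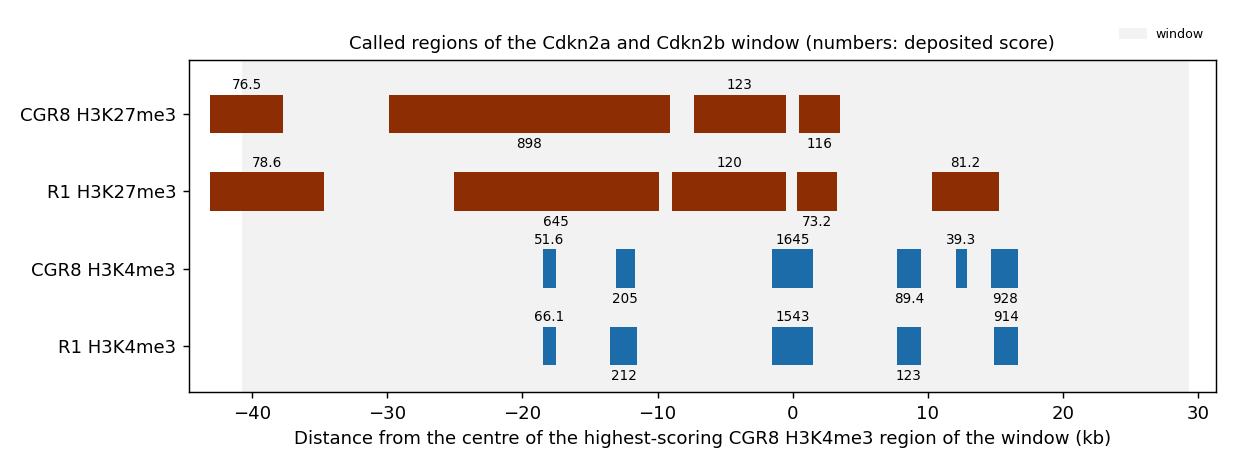
Called regions of the Cdkn2a and Cdkn2b window (grey), drawn to scale, with H3K27me3 in brown above H3K4me3 in blue and CGR8 above R1 within each mark; the x axis is the distance in kb from the centre of the highest-scoring CGR8 H3K4me3 region and numbers are deposited scores. The strongest H3K4me3 regions (scores 1645 and 1543) sit across a break in H3K27me3, and a further H3K27me3 region (score 81.2) is seen in R1 alone.

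By overlap of at least 1 bp, 3 of 6 H3K4me3 regions of this window in CGR8 and 4 of 5 in R1 carried H3K27me3, against 28.2% of all H3K4me3 regions in CGR8 and 29.1% in R1. In the other direction 3 of 4 H3K27me3 regions in CGR8 and 4 of 5 in R1 carried H3K4me3, against 41.3% and 48.8% of the lists. Bases with both marks came to 4.4 kb in CGR8 and 5.6 kb in R1 (mean 5.0 kb ± 0.849, SD, n = 2 lines), which was 44.0% and 58.3% of the H3K4me3 length in the window, against 19.9% and 21.4% of it genome-wide. All 4.4 kb of CGR8 also carried both marks in R1. They fell into 4 stretches: 88922201 to 88923200, 88927601 to 88929000, and the flanks of the strongest H3K4me3 region from 88939201 to 88940200 and from 88941201 to 88942200. With only the higher-scoring 50% of every list kept, 1 H3K4me3 region over both lines overlapped H3K27me3 (7 before). The mean length with both marks was then 0.5 kb and the mean H3K27me3 length 22.2 kb. The share over all H3K4me3 regions was not computed at that cut, so this loss is not shown to be particular to the locus. With so few regions these counts describe the locus and were not tested. Region lists cannot tell marks on the same molecule from marks in different cells.

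No called region of either mark followed closely on either side of this window. The nearest H3K4me3 region ended 115.2 kb below it in each line and the next began 220.8 kb above it. The nearest H3K27me3 regions were 126 kb below in CGR8 and 305.4 kb below in R1, and 217.6 kb above in both lines. The regions described above are therefore all that was called of either mark between those neighbours.

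Cdkn1a had the opposite balance of marks. Its window was led by a wide H3K4me3 region of high score. It ran from 29227401 to 29233600 in CGR8 (6.2 kb, score 2578) and from 29229601 to 29234000 in R1 (4.4 kb, score 2490). It ranked 2022 of 25241 in CGR8 and 1953 of 24618 in R1, above 92.0% and 92.1% of the lists in score and 97.3% and 92.4% in width. Per kb it stood lower, with 416 in CGR8 and 566 in R1, above 70.1% and 80.9% of the lists. The scores were close (log2 CGR8 over R1 0.05, against a median of 0.03 over 21972 H3K4me3 pairs with a single partner in each line), whereas the bounds were not: the CGR8 region reached 2200 bp further on the lower side and the R1 region 400 bp further on the higher side. The median width difference over all such pairs was 200 bp.

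H3K27me3 was called at this place in R1 and not in CGR8. The R1 region ran from 29229001 to 29232200 (3.2 kb, score 119), above 51.5% of its list in score and 5.97% in width, so it was narrow and of middle score. Its score per kb, 37.3, stood above 79.9% of the list. Of its length 2.6 kb (81.2%) lay in the R1 H3K4me3 region, whose lower part it covered, and the remaining 0.6 kb lay just below the start of that region. All 3.2 kb lay inside the CGR8 H3K4me3 region, which carried no called H3K27me3. The score was 2.01 times the lowest in the R1 list. The lowest in the CGR8 list was 70.6, but scores of the lists need not share a scale. In CGR8 the nearest called H3K27me3 lay 134 kb away. Whether the CGR8 library fell just short of the limit there was not tested.

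H3K4me3 regions of so high a score seldom met H3K27me3. Among regions scoring at least as high, H3K27me3 of the same line overlapped 175 of 2022 in CGR8 (8.65%) and 208 of 1953 in R1 (10.7%), so the Cdkn1a region was among that minority in R1 and not in CGR8.

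The other 3 H3K4me3 regions of the Cdkn1a window lay below the main one and met no H3K27me3 in either line. The first ran from 29208401 to 29212600 in both lines (4.2 kb, score 130 in CGR8 and 76.4 in R1) and began 1.6 kb outside the window. It was wide for its score, above 90.1% and 91.2% of the lists in width and 34.5% and 22.3% in score. The second ran from 29214001 to 29216600 in CGR8 (2.6 kb, score 800) and from 29214001 to 29217000 in R1 (3.0 kb, score 539), above 64.7% and 56.0% of the lists in score. The third ran from 29217201 to 29219400 in CGR8 (2.2 kb, score 64.6) and from 29217401 to 29218400 in R1 (1.0 kb, score 57.0), above 17.7% and 14.5% of the lists in score. In the RefSeq order Trp53cor1, the gene of a long noncoding RNA induced by p53, is the lower neighbour of Cdkn1a, and Rab44 the upper one, but none of these regions was assigned to a gene.

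The scores of the first and second of these were higher in CGR8 than in R1 by 0.77 and 0.57 on the log2 scale, more than in 95.2% and 91.7% of all H3K4me3 pairs, while the third and the main region differed by 0.18 and 0.05. H3K4me3 was thus called at the same 4 places in both lines, and the larger score differences were in the lower part of the window. Of the bases called for H3K4me3 in either line, 70.8% were called in both, against 74.1% genome-wide and 84.9% at Cdkn2a and Cdkn2b. Just outside the window, CGR8 had a weak H3K4me3 region from 29205001 to 29206600 (score 51.2), which R1 did not list.

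**Figure D3:**
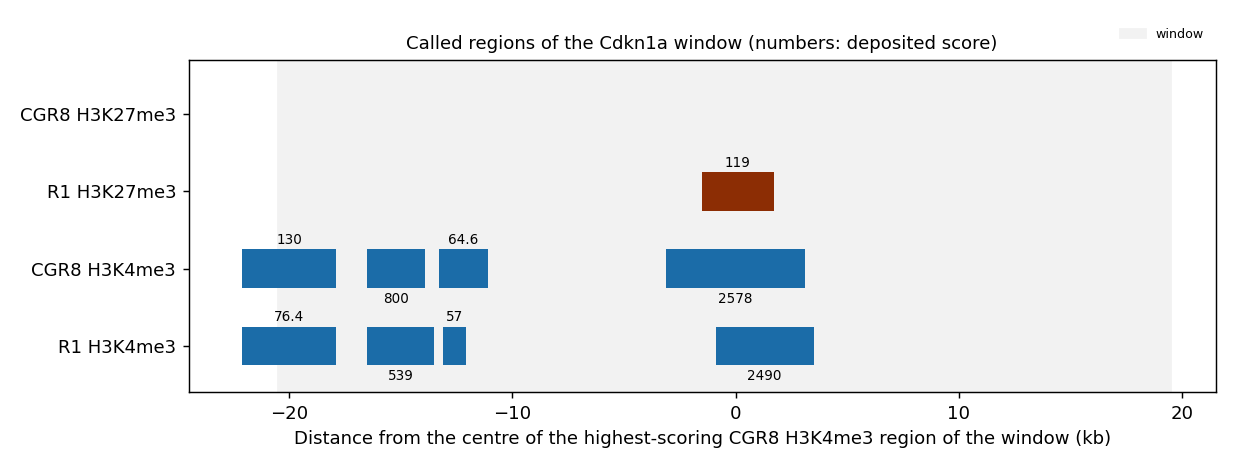
Called regions of the Cdkn1a window (grey), drawn to scale, with H3K27me3 in brown above H3K4me3 in blue and CGR8 above R1 within each mark; the x axis is the distance in kb from the centre of the highest-scoring CGR8 H3K4me3 region and numbers are deposited scores. Both lines have 4 H3K4me3 regions, and the only H3K27me3 region (score 119) is that of R1, at the lower part of the main H3K4me3 region (scores 2578 and 2490).

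Over both windows, 9 of 10 H3K4me3 regions of CGR8 and 9 of 9 of R1 had a partner in the other line, against 89.8% and 92.6% of the lists, and 4 of the 9 pairs had identical bounds, against 13.4% of all pairs. For H3K27me3 4 of 4 regions of CGR8 and 4 of 6 of R1 had a partner, against 67.1% and 81.1% of the lists. The regions of R1 alone were the uppermost of the chromosome 4 window and the one of the Cdkn1a window. Of the 9 H3K4me3 pairs, 3 carried H3K27me3 in both lines, 2 in R1 only, 0 in CGR8 only and 4 in neither. Among all 21972 pairs 27.3% carried it in both lines, 2.82% in R1 only, 2.56% in CGR8 only and 67.3% in neither, so the class that holds the main Cdkn1a region and the last region of the chromosome 4 window is a rare one, with 620 pairs. Beside these R1 calls stand the shorter R1 list of H3K27me3, its lower limit of score and its lower mean number of reads per window. That mean rests on 2 short regions and is weakly supported. The part of each in the difference was not tested.

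**Figure D4:**
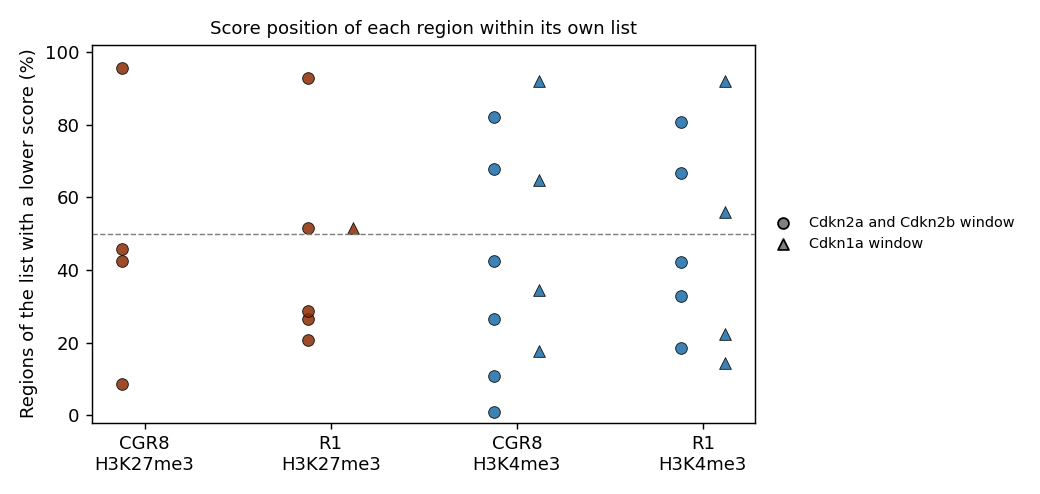
Share of the regions of a list with a lower score (y axis, percent) for each region of the 2 windows, in the 4 libraries; circles are regions of the Cdkn2a and Cdkn2b window, triangles those of the Cdkn1a window, and the dashed line marks the middle of a list. The broad H3K27me3 region of the first window (95.7% in CGR8 and 92.8% in R1) and the main H3K4me3 region of the second (92.0% and 92.1%) stand near the top. The remaining regions stand lower and are spread over their lists up to 82.2%.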

How the data were processed

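ChIP-seq of H3K27me3 and H3K4me3 was done in CGR8 and R1 rosette stem cells, with 1 library per line and mark. The authors deposited 1 list of called regions per library, with a score for each region whose formula, control library and threshold no label or file states. Bowtie2 2.0.2, SICER 1.1, bedtools 2.20.1 and build mm9 are named per the submitters' processing notes. Regions lie on a grid of 200 bp, and starts were counted from 1.

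From these lists, ranks, called lengths, overlaps and distances were computed with Python 3.11.15, numpy 2.4.6 and pandas 2.3.3, with scipy 1.17.1 for the reads per window and matplotlib 3.10.9 for figures. Lengths were clipped at the window edges, and overlap meant at least 1 bp. Groups came from the labels, with CGR8 as replicate 1 and R1 as replicate 2 within a mark. The reads per window are the Poisson mean for which a sum of negative natural logs gave the scores of all regions of at most 400 bp within 1e-06 (8 of 8 and 2 of 2 for H3K27me3, 144 of 144 and 155 of 155 for H3K4me3, CGR8 and R1), where the next best mean gave 1, 1, 7 and 5. Interval functions were tested on simulated data. All regions of the windows are named by position. The windows, members and lists were chosen with earlier results of these data known. Other cell cycle inhibitor genes were not analysed here, since no annotation on mm9 was used. The cell type label was not checked against markers for the same reason.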

Additional observations from a re-analysis of the deposited data

How the results depend on the processing

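Of 78 recomputed values of 12 results, 63 stayed within a set limit of the main value and 15 moved. The limit was the SD of the 2 lines for lengths, a 95% binomial interval over 200 bp steps for shares and 1.5 times for counts. Neighbouring steps are not independent, so that interval is a cut-off and measures no spread between lines. Values with a line left out lie within the SD of 2 lines by construction. The shared H3K27me3 bases at Cdkn1a were fixed at 0%, as CGR8 had no region there. The 63 is therefore no measure of stability. With only the higher-scoring 50% of every list, the Cdkn2a and Cdkn2b window had 22.2 kb of H3K27me3, 4.9 kb of H3K4me3 and 0.5 kb of both, 1 H3K4me3 region overlapped H3K27me3 against 7 over both lines before, and the bases shared between lines were 52.1% for H3K27me3 and 96.0% for H3K4me3. With lists of equal length, H3K4me3 there covered 4.9 kb and both marks 2.3 kb, with shared bases of 57.1% and 96.0%. Much of the overlap of marks at Cdkn2a and Cdkn2b was thus lost when lower-scoring regions were left out. That at Cdkn1a in R1 (2.6 kb) did not change under any setting run that kept R1. The share of all H3K4me3 regions overlapping H3K27me3 was not computed for the shortened lists. The loss is therefore not shown to be particular to Cdkn2a and Cdkn2b. The Cdkn1a H3K27me3 region ranked 6069 of 12511, however, only just inside the higher-scoring 50%. The lists of equal length kept the whole R1 H3K27me3 list. An R1 H3K27me3 region of the Cdkn2a and Cdkn2b window had nearly the same score (119.6 against 119.3), so this contrast depends on where the cut falls. H3K4me3 at Cdkn1a covered 8.1 kb under either shortening, 9.7 kb with regions wholly inside the window and 17.8 kb with the window widened by 20 kb on each side, and H3K27me3 at Cdkn2a and Cdkn2b 31.1 kb with regions wholly inside. Leaving out a line gave 0 kb (R1 left out) or 3.2 kb (CGR8 left out) of H3K27me3 at Cdkn1a, so that region rests on R1.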
